A study of Mus musculus with 14 samples.

Results

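The 10 guanylate-binding protein genes analysed here were Gbp2, Gbp2b, Gbp3, Gbp5 and Gbp7 of the mouse chromosome 3 cluster and Gbp4, Gbp6, Gbp8, Gbp9 and Gbp10 of the chromosome 5 cluster. They were chosen by name, not by level, and all 10 were found among 34866 gene identifiers in the deposited data. Poly(A) RNA was sequenced from 3 mouse tumour lines. The cells, plated at 100000 per well, received RIG-I agonist, or control agonist in its place, at 0.5 ug/ml for 24 h. RIG-I is a cytosolic sensor of viral RNA, and the study concerns its activation inside tumour cells. CT26 with RIG-I agonist and CT26 with control agonist had 3 libraries each, and CT26 is a colorectal carcinoma line of BALB/c origin grown in RPMI. E0771 with RIG-I agonist and E0771 with control agonist had 2 libraries each, and E0771 is a mammary cancer line of C57BL/6 origin grown in RPMI. MC38 with RIG-I agonist and MC38 with control agonist had 2 libraries each, and MC38 is a colon adenocarcinoma line of C57BL/6 origin grown in DMEM. No untreated cells were analysed here, so the control agonist is the baseline of each fold change, and nothing in the labels names the chemical identity of either agonist. Each line is 1 cell population, so line, strain of origin (for CT26), tumour type, medium (for MC38) and any sequencing batch cannot be told apart between lines. The deposited column names of E0771 and MC38 share a prefix that those of CT26 lack. Whether replicates were separate cultures is not in the labels, and p-values here reflect library-to-library spread that could be technical.

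Guanylate-binding proteins are large GTPases that interferons induce in many cell types. They assemble on the membranes of vacuoles that hold pathogens and on bacteria, where they help to disrupt the membrane and to start inflammasome responses. In mouse cells their loading onto vacuoles depends on immunity-related GTPases and on the machinery that conjugates ATG8 proteins, and several members carry a lipid anchor added to a C-terminal CaaX motif. Their promoters are known for binding interferon-activated factors, IRF1 among them, at the interferon-stimulated response element (ISRE) and the gamma-activated sequence (GAS).

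On GRCm38 the chromosome 3 genes lie in a row on the plus strand. Gbp5 (ENSMUSG00000105504) spans chr3:142493978-142522344, Gbp7 (ENSMUSG00000040253) chr3:142530342-142550149 and Gbp3 (ENSMUSG00000028268) chr3:142560026-142573209. Gbp2b (ENSMUSG00000040264) follows at chr3:142594847-142619179 and Gbp2 (ENSMUSG00000028270) at chr3:142620602-142638008. The chromosome 5 genes lie on the minus strand. Gbp8 (ENSMUSG00000034438) spans chr5:105014150-105139540, Gbp9 (ENSMUSG00000029298) chr5:105077630-105139539 and Gbp4 (ENSMUSG00000079363) chr5:105115767-105139586, so the annotated spans of these 3 overlap. Gbp10 (ENSMUSG00000105096) lies at chr5:105215699-105239533 and Gbp6 (ENSMUSG00000104713) at chr5:105270702-105293698. Gm43302 (ENSMUSG00000079362), annotated as protein-coding at chr5:105214907-105293695, spans both of the last. The clusters also hold Gm43802, a processed pseudogene inside Gbp7, and close by lie Gbp2-ps and Gbp11, annotated as a pseudogene and as a polymorphic pseudogene.

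The promoter table of RefSeq (GRCm38.p6) held windows for 5 of the 10 members, all on chromosome 3. They are shown because all 5 rose with RIG-I agonist in CT26, and all but Gbp2b, which was near 0 in the other lines, also in E0771 and MC38. Each is given as the 180 bases directly before the RefSeq start, plus strand, with matches to the ISRE letters in capitals. Gbp3 has a second RefSeq start, whose window held no match and is not shown.

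Gbp5, chr3:142496754-142496933: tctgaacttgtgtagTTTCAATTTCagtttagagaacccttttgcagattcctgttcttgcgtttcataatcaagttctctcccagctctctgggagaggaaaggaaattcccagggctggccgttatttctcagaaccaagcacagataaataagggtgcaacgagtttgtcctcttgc
Gbp7, chr3:142530156-142530335: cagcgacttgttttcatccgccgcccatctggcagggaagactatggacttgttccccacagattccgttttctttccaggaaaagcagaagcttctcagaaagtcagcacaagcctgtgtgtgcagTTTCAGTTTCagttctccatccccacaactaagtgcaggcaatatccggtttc
Gbp3, chr3:142559864-142560043: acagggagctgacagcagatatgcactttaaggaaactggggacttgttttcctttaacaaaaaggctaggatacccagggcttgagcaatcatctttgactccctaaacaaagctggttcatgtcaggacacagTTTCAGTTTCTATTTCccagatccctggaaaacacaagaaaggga
Gbp2b, chr3:142594667-142594846: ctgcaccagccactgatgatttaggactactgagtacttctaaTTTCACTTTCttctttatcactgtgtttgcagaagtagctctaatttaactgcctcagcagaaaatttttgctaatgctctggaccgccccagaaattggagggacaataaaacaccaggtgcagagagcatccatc
Gbp2, chr3:142620483-142620662: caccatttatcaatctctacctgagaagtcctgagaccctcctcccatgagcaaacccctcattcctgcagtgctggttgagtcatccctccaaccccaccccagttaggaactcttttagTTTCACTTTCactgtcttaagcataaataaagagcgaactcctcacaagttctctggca

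The search covered 250 bases before to 50 bases after each RefSeq start, on both strands, for the ISRE letters, GAAA with any 2 bases and then GAAA, and the GAS letters, TTC with any 3 bases and then GAA. Each of the 5 genes held the ISRE letters, all on the minus strand, and Gbp3 held a pair that overlap. Relative to the start, the first bases of the matches were at -165 in Gbp5, -137 in Gbp2b, -59 in Gbp2, -53 in Gbp7 and, in Gbp3, at -45 and -39. The GAS letters occurred in Gbp5, at -245 and -52, and in Gbp7, at -106 and -87. Of all 32851 windows in that resource, 3.44% held the ISRE letters and 8.3% held the GAS letters. A match describes letters in this window and is not evidence of binding. The RefSeq starts of Gbp5, Gbp3 and Gbp2 lie downstream of the starts of the gene spans given above.

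In CT26 all 10 members rose with the RIG-I agonist, in E0771 8 of the 9 that could be tested rose, and in MC38 all 8 that could be tested rose. Of all genes tested, edgeR called 19.8% higher in CT26, 1.53% in E0771 and 18.9% in MC38. Gbp4, Gbp8 and Gbp10 in E0771, and Gbp10 in MC38, were tested only through their RIG-I libraries. For every member tested in all 3 lines the fold change was largest in E0771. For Gbp2, Gbp3, Gbp5, Gbp7, Gbp4 and Gbp9, E0771 also had the lowest mean level with control agonist. The means of Gbp6 and Gbp8 were lowest in E0771 too. Its control libraries there overlapped those of CT26 for Gbp6 and those of MC38 for Gbp8. Gbp2b was abundant in CT26 and near 0 in both C57BL/6 lines with either agonist. Among the chromosome 5 genes Gbp6 and Gbp10 share most of their sequence with each other and with Gm43302, so their single values are uncertain. Levels below are counts-per-million (CPM) on one scale for all 14 libraries. In whole cell populations, more transcript per cell and more cells that express a gene cannot be told apart.

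Gbp2 is an interferon-induced GTPase of the mouse that is recruited to Toxoplasma vacuoles. In CT26 its level was 639, 659 and 637 CPM with RIG-I agonist, against 56.9, 59.9 and 64.7 with control agonist. E0771 had 228 and 184 CPM of Gbp2 with RIG-I agonist, against 3.26 and 2.63 with control agonist. MC38 had 300.2 and 307 CPM with RIG-I agonist, against 58.4 and 58.4 with control agonist. Every RIG-I library lay above every control library of its line, and control-agonist CT26 and MC38 overlapped while control-agonist E0771 lay far below both. The log2 fold change of Gbp2 was 3.43 (SE 0.074) in CT26, 6.13 (SE 0.22) in E0771 and 2.35 (SE 0.042) in MC38, with edgeR adjusted p of 2.75e-13, 0.00277 and 1.26e-20.

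Gbp3 had the highest level per kilobase of exon among the members in all 3 lines with RIG-I agonist. CT26 had 1079, 1106 and 1064 CPM with RIG-I agonist, against 103, 110.5 and 119 with control agonist. E0771 had 315 and 338 CPM, against 7.44 and 5.98, and MC38 had 517 and 541 CPM, against 74.8 and 74.0, in each case with RIG-I agonist against control agonist. The groups did not overlap in any line, and the 6 groups were separate from one another. Gbp3 rose by 3.31 (SE 0.077) on the log2 scale in CT26, by 5.61 (SE 0.18) in E0771 and by 2.80 (SE 0.039) in MC38, with edgeR adjusted p of 4.92e-13, 0.00277 and 2.62e-22.

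Gbp5 is known for promoting assembly of the NLRP3 inflammasome in macrophages. It reached 115, 119.5 and 121 CPM in CT26 with RIG-I agonist, against 7.93, 7.64 and 8.11 with control agonist. In E0771 it had 77.2 and 84.2 CPM with RIG-I agonist, against 2.28 and 1.04 with control agonist. In MC38 it had 39.3 and 40.1 CPM with RIG-I agonist, against 4.69 and 5.31 with control agonist. All 6 groups were separate, and Gbp5 had the largest log2 fold change of the members in CT26, at 3.92 (SE 0.068, edgeR adjusted p = 4.98e-14). The log2 fold changes in E0771 and MC38 were 5.60 (SE 0.33, adjusted p = 0.00486) and 2.97 (SE 0.10, adjusted p = 6.04e-16). Without the first E0771 control library the E0771 value was 6.27.

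Gbp7 is known in the mouse from host defence against intracellular bacteria and Toxoplasma. With RIG-I agonist CT26 had 458, 478 and 459 CPM, against 72.2, 71.1 and 76.7 with control agonist. E0771 had 159 and 217 CPM with RIG-I agonist, against 9.03 and 4.15 with control agonist. MC38 had 165 and 182 CPM with RIG-I agonist, against 39.6 and 40.4 with control agonist. RIG-I libraries of E0771 and MC38 overlapped, and within each line the agonists were separate. Its log2 fold change was the smallest of the tested members in E0771, at 4.84 (SE 0.41, edgeR adjusted p = 0.00999), and in MC38, at 2.10 (SE 0.053, adjusted p = 3.62e-18), and was 2.68 (SE 0.063, adjusted p = 5.55e-13) in CT26. The E0771 value was 5.50 without the first E0771 control library. Gm43802, the pseudogene inside Gbp7, has all of its 31-mers in Gbp7 and had 47.1 ± 6.00 CPM with RIG-I agonist, against 8.31 ± 0.53 with control agonist in CT26 (SD, n = 3 each). Reads of Gbp7 and Gm43802 cannot be told apart in the shared stretch.

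Gbp2b, formerly named Gbp1, was high only in CT26 among the 3 lines. CT26 had 430, 444 and 434 CPM with RIG-I agonist, against 34.0, 33.0 and 38.3 with control agonist, and its log2 fold change was 3.65 (SE 0.073, edgeR adjusted p = 1.68e-13). E0771 had 0 and 0 counts with RIG-I agonist, against 1 and 0 with control agonist, and MC38 had 0 and 2 counts with RIG-I agonist, against 1 and 0 with control agonist. Neither line could be tested for Gbp2b within the line, and a count of 0 in both E0771 RIG-I libraries allows a level of up to 0.11 CPM. With RIG-I agonist, CT26 was at least 3945-fold higher than E0771, from the floor of 3 counts over the E0771 group, and 6912-fold higher than MC38 (95% interval 1913 to 57070). With control agonist the ratios were 902.5 to E0771 (95% interval 161.9 to 35650) and 1038 to MC38 (186.1 to 40990). These intervals cover counting error only. Gbp2b holds 95.8% of its 31-mers alone in the annotation, and Gbp2, which shares 4.61% of its own with Gbp2b, was high in E0771 and MC38 with RIG-I agonist.

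**Figure D1:**
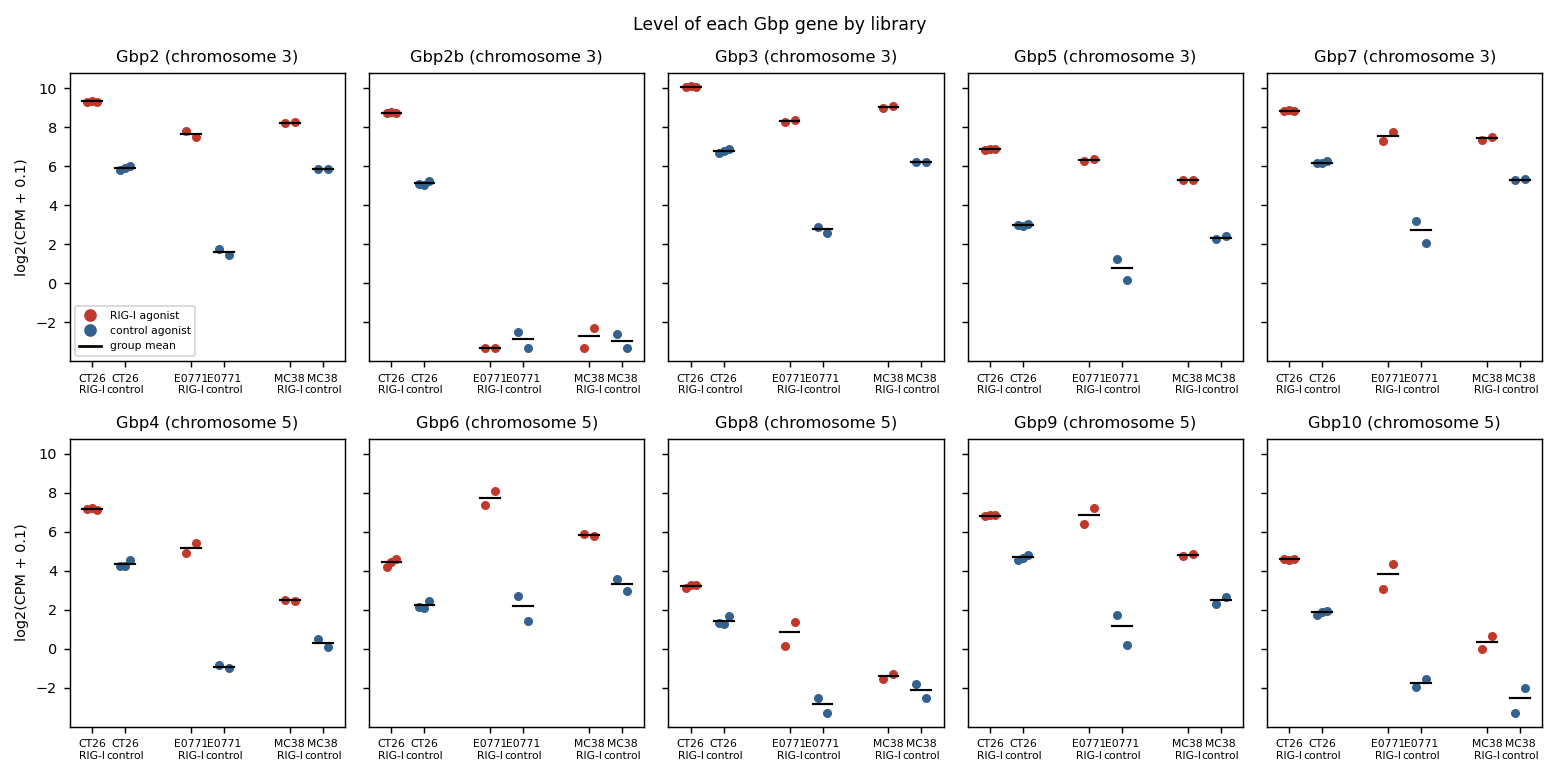
Level of each member in each library as log2(CPM + 0.1), with RIG-I agonist in red left of control agonist in blue for each line, and black lines at the group means. Gbp2, Gbp3, Gbp5 and Gbp7 are higher with RIG-I agonist in all 3 lines, and Gbp2b is near 0 in E0771 and MC38 with either agonist.

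Gbp4 has been reported in the mouse to dampen IRF7 activation. CT26 had 143, 148 and 137 CPM with RIG-I agonist, against 19.0, 19.0 and 23.7 with control agonist. E0771 had 30.0 and 42.4 CPM with RIG-I agonist, against 0.455 and 0.399 with control agonist. MC38 had 5.63 and 5.39 CPM with RIG-I agonist, against 1.31 and 0.959 with control agonist. The 6 groups were separate, and CT26 with control agonist lay above MC38 with RIG-I agonist. With all libraries, its log2 fold change of 6.38 (SE 0.32, edgeR adjusted p = 0.00469) in E0771 was the largest of the members there. That value rests on at most 6 counts in an E0771 control library, and the rank was lost whichever E0771 library was left out. Gbp10 was larger without the first RIG-I or the second control library, and Gbp2 without the second RIG-I library. Without the first control library Gbp8 and Gbp9 were larger. The log2 fold change of Gbp4 was 2.81 (SE 0.089, adjusted p = 1.94e-11) in CT26 and 2.23 (SE 0.26, adjusted p = 6.19e-07) in MC38.

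Gbp9 had 111, 115 and 115 CPM in CT26 with RIG-I agonist, against 23.8, 25.3 and 27.6 with control agonist. In E0771 it had 84.2 and 150.0 CPM with RIG-I agonist, against 3.26 and 1.04 with control agonist. In MC38 it had 27.4 and 29.4 CPM with RIG-I agonist, against 4.88 and 6.19 with control agonist. MC38 with RIG-I agonist overlapped CT26 with control agonist, and E0771 with RIG-I agonist overlapped CT26 with RIG-I agonist. The log2 fold changes were 2.17 (SE 0.070, edgeR adjusted p = 1.31e-11) in CT26, 5.76 (SE 0.56, adjusted p = 0.0152) in E0771 and 2.35 (SE 0.12, adjusted p = 4.47e-13) in MC38. The E0771 call of Gbp9 was lost without the second E0771 RIG-I library (edgeR adjusted p = 0.074) and without the low-count filter (0.0989). Its E0771 log2 fold change was 6.81 without the first E0771 control library and 5.17 without the second.

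Gbp8 had the lowest level per kilobase of exon among the members in CT26. It had 8.50, 9.58 and 9.40 CPM in CT26 with RIG-I agonist, against 2.35, 2.35 and 3.13 with control agonist, and rose by 1.82 (SE 0.14, edgeR adjusted p = 1.53e-07) on the log2 scale, the smallest fold change of the members in CT26. E0771 had 0.991 and 2.49 CPM with RIG-I agonist, against 0.0759 and 0 with control agonist, that is 48 counts against 1, a ratio of 45.4 (95% interval 7.78 to 1832, counting error only). The edgeR adjusted p there was 0.151, so the E0771 difference did not pass the threshold, whereas it did without the low-count filter (0.0462) and in 1 fit of all 14 libraries (0.00046). MC38 had 0.238 and 0.314 CPM with RIG-I agonist, against 0.188 and 0.0737 with control agonist, and was not tested.

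Gbp10 had 24.6, 23.0 and 24.5 CPM in CT26 with RIG-I agonist, against 3.22, 3.65 and 3.75 with control agonist. E0771 had 8.23 and 20.2 CPM with RIG-I agonist, against 0.152 and 0.239 with control agonist. MC38 had 0.873 and 1.46 CPM with RIG-I agonist, against 0 and 0.147 with control agonist, that is 39 counts against 2. Its log2 fold change was 2.78 (SE 0.086, edgeR adjusted p = 8.70e-12) in CT26, 6.13 (SE 0.69, adjusted p = 0.0243) in E0771 and 3.98 (SE 0.74, adjusted p = 0.000216) in MC38. The MC38 value rests on the 2 control counts, for which the ratio is 18.2 (95% interval 4.71 to 155). The fitted MC38 value was 2.93 without the first MC38 control library and 7.26 without the second, and without the second MC38 RIG-I library Gbp10 was not tested there. In E0771 the value was 5.34 without the second RIG-I library.

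Gbp6 has been linked in the mouse to defence against intracellular bacteria. CT26 had 18.3, 21.97 and 24.1 CPM with RIG-I agonist, against 4.36, 4.22 and 5.30 with control agonist. E0771 had 163 and 269 CPM with RIG-I agonist, against 6.45 and 2.55 with control agonist. MC38 had 59.2 and 55.9 CPM with RIG-I agonist, against 11.8 and 7.82 with control agonist. With RIG-I agonist the order was E0771 over MC38 over CT26, with no overlap, which no other member showed. The log2 fold changes were 2.23 (SE 0.12, edgeR adjusted p = 1.50e-08) in CT26, 5.58 (SE 0.51, adjusted p = 0.0123) in E0771 and 2.50 (SE 0.13, adjusted p = 3.38e-07) in MC38. The E0771 call of Gbp6 was lost without the second E0771 RIG-I library (edgeR adjusted p = 0.0686) and without the low-count filter (0.0537), and its value was 6.40 without the first E0771 control library.

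Among all genes tested, edgeR called 19.8% higher and 18.6% lower in CT26 (13893 tested), 1.53% higher and 0.0256% lower in E0771 (11728 tested), and 18.9% higher and 17% lower in MC38 (12387 tested). In CT26, 10 of 10 members rose, with a median log2 fold change of 2.79, against 0.00 over all genes tested. In MC38, 8 of 8 rose, with a median of 2.43, against 0.00 over all genes, and in E0771 8 of 9 rose, with a median of 5.61, against -0.01. In E0771, Gbp4, Gbp8 and Gbp10, and in MC38 Gbp10, had under 10 counts in every control library and were tested only through their RIG-I libraries. Gbp2b in E0771 and MC38, and Gbp8 in MC38, were not tested. Every RIG-I library lay above every control library for 10 of 10 members in CT26, 9 of 9 tested in E0771 and 8 of 8 tested in MC38, against 24.8%, 19.8% and 37.5% of all tested genes. In CT26 the chromosome 3 members had a median log2 fold change of 3.43 and the chromosome 5 members one of 2.23, while in E0771 the medians were 5.60 and 5.76 and in MC38 2.58 and 2.42.

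**Figure D2:**
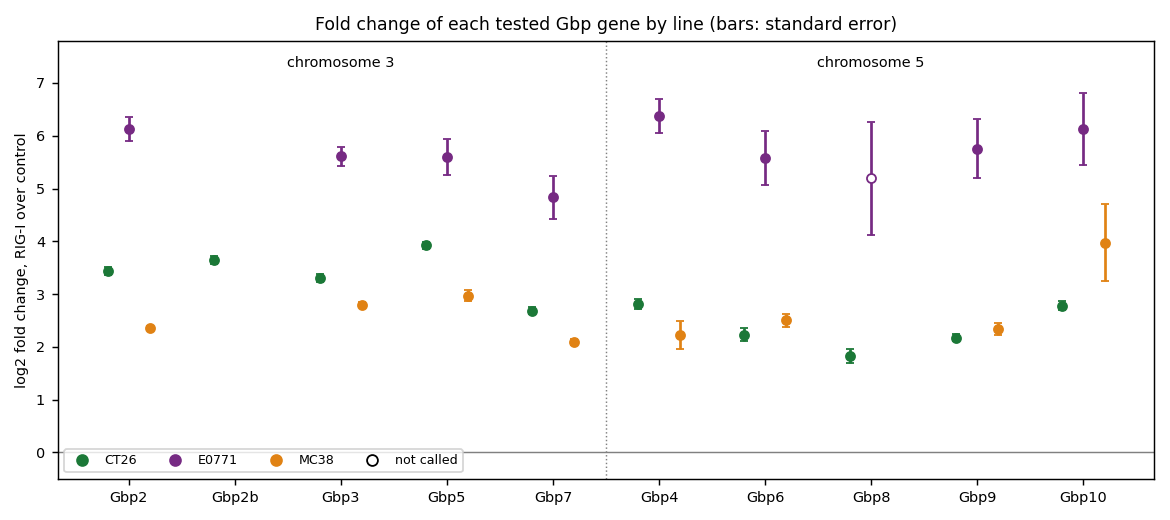
Log2 fold change of each tested member, RIG-I agonist over control agonist, by line (vertical axis), with bars for the standard error and open points for members that did not pass the test. The E0771 points lie between 4.84 and 6.38 and above those of CT26 and MC38 for every member tested in all 3 lines, although the difference between E0771 and MC38 was not called for Gbp10 (2.13, edgeR adjusted p = 0.715).

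Gbp6, Gbp10 and Gm43302 form 1 group of near-identical sequence. Of the 31-mers of the annotated transcripts, Gbp10 shares 80.8% with Gbp6, and 10.2% of its own are found nowhere else in the annotation, against 25.9% for Gbp6. Gm43302 holds none that are its own, with 95.7% in Gbp6. The counts of this group lay mostly under the name Gm43302 in CT26 and mostly under Gbp6 in E0771 and MC38, and whether shared reads or the expression of each gene differed between lines was not tested. In CT26 Gm43302 held 129, 122 and 114 CPM with RIG-I agonist, against 18.5, 20.5 and 21.7 with control agonist, whereas in E0771 it held 2.97 and 0 CPM with RIG-I agonist, against 0.607 and 0 with control agonist. MC38 had 0 and 0 CPM of Gm43302 with RIG-I agonist, against 0.375 and 1.25 with control agonist.

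The sum of Gbp6, Gbp10 and Gm43302 does not depend on how reads shared by the 3 were assigned among them, and it was chosen after the values had been seen. It was 172, 167 and 162 CPM in CT26 with RIG-I agonist, against 26.1, 28.4 and 30.7 with control agonist. In E0771 it was 174 and 289 CPM with RIG-I agonist, against 7.21 and 2.79 with control agonist, and in MC38 60.1 and 57.3 CPM with RIG-I agonist, against 12.1 and 9.22 with control agonist. On the sum, CT26 and E0771 lay above MC38 with RIG-I agonist, whereas Gbp6 alone put CT26 lowest of the 3 lines. The sum was 5.89-fold higher with RIG-I agonist in CT26, 46.3-fold in E0771 and 5.50-fold in MC38. The E0771 sum was 82.9-fold higher without the first E0771 control library.

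**Figure D3:**
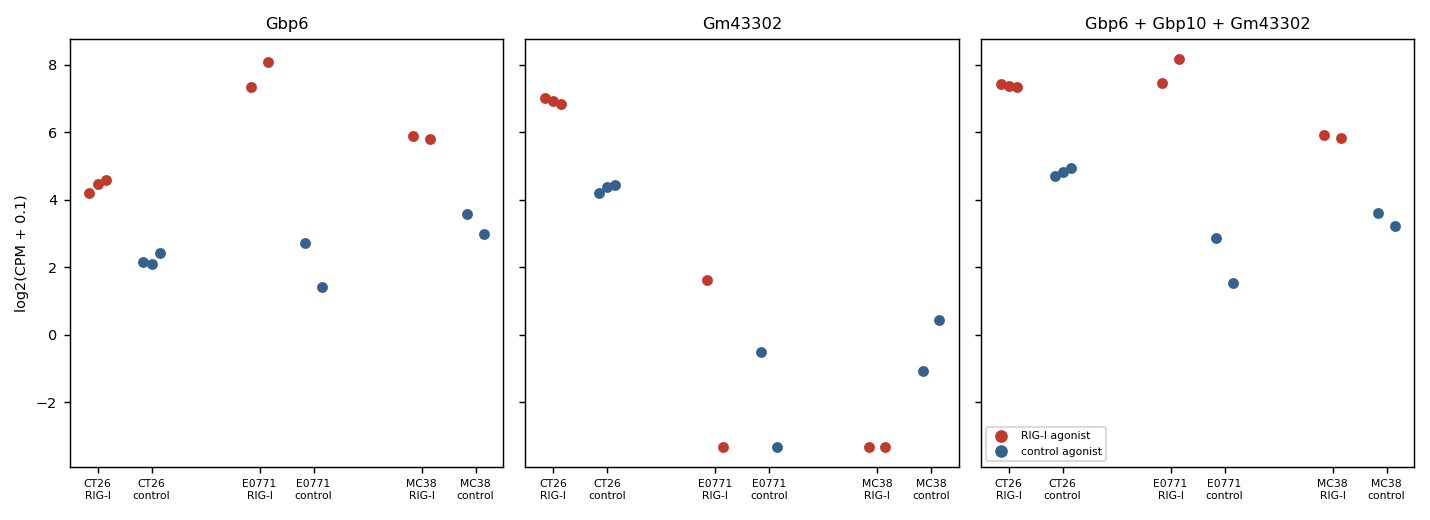
Level by library of Gbp6, of Gm43302 and of the sum of Gbp6, Gbp10 and Gm43302 as log2(CPM + 0.1), with RIG-I agonist in red left of control agonist in blue. Gm43302 is high in CT26 and near 0 in E0771 and MC38, and the sum places CT26 with RIG-I agonist near E0771 with RIG-I agonist, unlike Gbp6 alone.

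Sequence sharing of the other members was smaller. The chromosome 3 members held 85.3% to 99.2% of their 31-mers alone, and the pairs with the most sharing were Gbp7 with its pseudogene and Gbp3 with Gbp7, at 5.52% of the 31-mers of Gbp3. On chromosome 5, Gbp8 held 68.9%, Gbp9 81.7% and Gbp4 85.9% alone. Gbp11, like Gm43302 and most members, had its highest level in CT26 with RIG-I agonist. CT26 had 17.3, 21.8 and 22.4 CPM with RIG-I agonist, against 2.12, 2.89 and 3.27 with control agonist, while E0771 had 18 counts with RIG-I agonist against 0 with control agonist and MC38 had 2 against 0. Gbp2-ps held 0 counts in all 14 libraries.

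**Figure D4:**
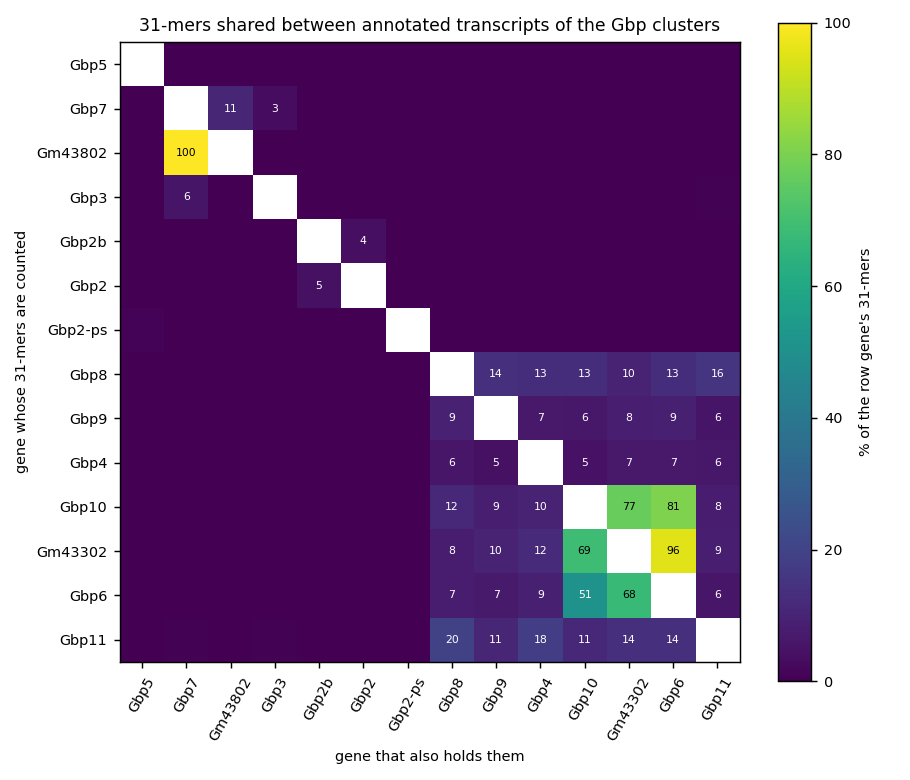
Percentage of the 31-mers of each gene (rows) that also occur in each other gene of the clusters (columns), from the annotated transcripts. The bright block holds Gbp10, Gm43302 and Gbp6, and Gm43802 has all of its 31-mers in Gbp7.

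Tests of the difference between lines placed the RIG-I effect highest in E0771 for most members tested. Gbp4, Gbp8 and Gbp10 had under 10 counts in every E0771 control library and were tested there only through their RIG-I libraries. Their place in the counts and ranges below depended on their rise in E0771. Of the 9 members tested in both CT26 and E0771, 8 had a smaller effect in CT26, while edgeR called 3.59% of the genes tested in both lines in that direction and 1.22% in the other. The differences, CT26 minus E0771, ran between -1.71 (SE 0.22) for Gbp5 and -3.62 (SE 0.43) for Gbp9, with adjusted p of 2.07e-06 to 0.021. Gbp8 had a difference of -3.54 (SE 0.92) that did not pass the threshold (adjusted p = 0.0538), but did without the first E0771 RIG-I library (0.00596), without the low-count filter (0.0338) and with a replicate block (0.012). It was -6.65 without the first E0771 control library, -2.67 without the second and -2.71 without the second E0771 RIG-I library, with adjusted p of 0.061, 0.194 and 0.115. The call of Gbp10 was lost without the first or the second E0771 control library (adjusted p 0.108 and 0.0944), and limma voom with a variance per line ended those of Gbp5, Gbp4 and Gbp10 (0.0507, 0.0748 and 0.43). Without the first E0771 control library the differences were -2.40 for Gbp5, -2.86 for Gbp7, -4.22 for Gbp6 and -4.69 for Gbp9, and without the second E0771 RIG-I library that of Gbp10 was -2.63. Of the 8 members tested in both E0771 and MC38, 7 had a larger effect in E0771, against 2.26% of genes called in that direction and 0.391% in the other. These differences ran between 2.62 (SE 0.25) for Gbp5 and 4.16 (SE 0.51) for Gbp4, and Gbp10 had a difference of 2.13 (SE 1.86, adjusted p = 0.715). The call of Gbp6 was lost without the first MC38 control library (adjusted p = 0.061), and limma voom ended those of Gbp6 and Gbp4 (0.0823 and 0.0503). Without the first E0771 control library the differences were 3.29 for Gbp5, 3.40 for Gbp7, 3.87 for Gbp6 and 4.46 for Gbp9, and without the second that of Gbp9 was 2.82.

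The CT26 and MC38 effects were closer. Of 8 members tested in both, Gbp2 with a difference of 1.03 (SE 0.13, adjusted p = 0.000897) and Gbp5 with 0.91 (SE 0.18, adjusted p = 0.0164) had a larger effect in CT26, against 2.21% of genes called in that direction and 2.28% in the other. The other 6 did not pass the threshold, including Gbp3 at 0.45 (SE 0.12, adjusted p = 0.0556), and their differences ran between -1.30 (SE 1.15) for Gbp10 and 0.54 (SE 0.25) for Gbp7. That of Gbp10 was -0.24 without the first MC38 control library and -5.16 without the second. The call of Gbp5 was lost without any one of the 4 MC38 libraries, with adjusted p of 0.0722 and 0.0796 without the first and second RIG-I library and of 0.071 and 0.128 without the first and second control library. Gbp3 passed with RLE size factors (0.044), with DESeq2 (0.000249), with limma voom (0.00121), with a replicate block (0.0087), without the third CT26 control library (0.0355) and without any one of the E0771 libraries (0.0282 to 0.0398), and Gbp7 passed with limma voom (0.00263). A p that misses the threshold does not show equal effects.

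With control agonist alone, the members differed between lines as well. CT26 was higher than E0771 in 9 of 10 members, while edgeR called 37.2% of all genes higher and 33.1% lower in CT26 than in E0771, and Gbp6 did not pass (0.05, SE 0.38). The called differences ran between 2.25 (SE 0.19) for Gbp5 and 9.65 (SE 0.32) for Gbp2b on the log2 scale, and that for Gbp2b rests on 1 count in E0771. Without the first E0771 control library the differences were 2.94 for Gbp5, 4.16 for Gbp7, 4.63 for Gbp9, 9.02 for Gbp8 and 12.8 for Gbp2b, and without the second those of Gbp8 and Gbp2b were 5.04 and 8.78. CT26 was higher than MC38 in 8 members and lower in Gbp6 (-1.10, SE 0.32, adjusted p = 0.01), against 37.8% of all genes higher in CT26 and 35.8% lower, and Gbp2 did not pass (0.04, SE 0.10). The sum of Gbp6 with Gbp10 and Gm43302 was 28.4 ± 2.33 CPM in CT26 (SD, n = 3) and 10.7 ± 2.06 CPM in MC38 (SD, n = 2). The call of Gbp6 was lost without the first MC38 control library (adjusted p = 0.145), and with a replicate block the calls of Gbp6 and Gbp7 were lost (0.0643 and 0.058). Without that library the differences of Gbp2b, Gbp8 and Gbp10 were 12.8, 5.05 and 4.54, and without the second MC38 control library those of Gbp2b and Gbp10 were 9.03 and 9.46.

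With control agonist E0771 was lower than MC38 in 7 members, against 32.6% of genes lower and 31.5% higher in E0771, and Gbp2b, Gbp8 and Gbp10 did not pass. The largest of these were Gbp2 at -4.33 (SE 0.14) and Gbp3 at -3.49 (SE 0.12). The calls of Gbp4, Gbp6 and Gbp9 were each lost when single libraries were left out and were all lost with limma voom (0.229, 0.147 and 0.095), while those of Gbp6 and Gbp9 were also lost without the low-count filter (0.095 and 0.0767). The edgeR adjusted p of Gbp4 was 0.0781 without the first E0771 control, 0.101 without the second and 0.121 without the first MC38 control. That of Gbp6 was 0.227 without the second E0771 control and 0.192 without the first MC38 control, and that of Gbp9 was 0.193 without the second E0771 control and 0.0955 without the second MC38 control. Without the first E0771 control the differences of Gbp5, Gbp7, Gbp6 and Gbp9 were -2.27, -3.27, -1.96 and -2.41.

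Summed over all 10 members, the level was 3058 ± 56.6 CPM in CT26 with RIG-I agonist, against 345 ± 23.1 with control agonist (SD, n = 3 each). In E0771 the sum was 1066 and 1306 CPM with RIG-I agonist, against 32.5 and 18.0 with control agonist, and in MC38 it was 1114 and 1164 CPM with RIG-I agonist, against 196 and 193 with control agonist. The RIG-I libraries of E0771 thus spanned those of MC38, while the control libraries of E0771 lay far below those of MC38. The sum was 8.88-fold higher with RIG-I agonist in CT26, 47.0-fold in E0771 and 5.86-fold in MC38. Split by cluster, the chromosome 3 members were 9.55-fold, 44.7-fold and 5.88-fold higher, and the chromosome 5 members 5.47-fold, 52.7-fold and 5.58-fold higher. In E0771 the chromosome 5 members were 91.1-fold higher without the first control library.

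The make-up of the sum also differed by line. The chromosome 5 members took 10.2% ± 0.08 of the member counts in CT26 with RIG-I agonist, against 16.5% ± 0.56 with control agonist (SD, n = 3 each), and no RIG-I library overlapped a control library. In E0771 the share was 32.0% ± 7.16 with RIG-I agonist, against 27.7% ± 6.05 with control agonist, and in MC38 8.16% ± 0.30 against 8.56% ± 0.99 (SD, n = 2 each), within the spread between libraries. With Gm43302, Gbp11 and Gm43802 included, the CT26 share was 13.96% ± 0.10 with RIG-I agonist, against 21.2% ± 0.65 with control agonist. With RIG-I agonist Gbp6 took 17.9% of the member counts in E0771, 5.06% in MC38 and 0.703% in CT26, and CT26 with RIG-I agonist was the group in which Gm43302 averaged 122 CPM.

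**Figure D5:**
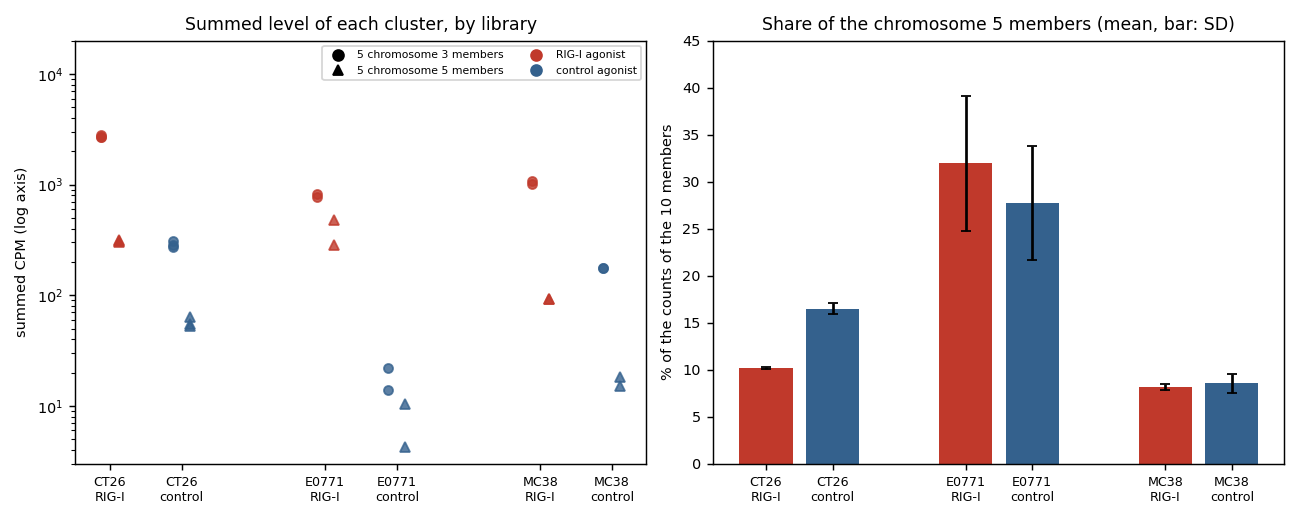
Left, summed CPM of the 5 chromosome 3 members (circles) and the 5 chromosome 5 members (triangles) in each library on a log axis. Right, the share of the member counts held by the chromosome 5 members as mean with SD, which was 10.2% with RIG-I agonist and 16.5% with control agonist in CT26.

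Per kilobase of merged exons, with RIG-I agonist, Gbp3 led in each line, at 332 ± 6.57 CPM per kilobase in CT26 (SD, n = 3), 99.98 ± 4.97 in E0771 and 162 ± 5.25 in MC38 (SD, n = 2 each), followed by Gbp2 at 256 ± 4.73, 81.8 ± 12.5 and 121 ± 2.00. The next genes differed by line: Gbp2b and Gbp7 in CT26, Gbp6 and Gbp7 in E0771, and Gbp7 and Gbp6 in MC38. Gbp8 had the lowest level per kilobase in CT26, at 2.66 ± 0.17, and Gbp2b the lowest in E0771 and MC38, near 0. With control agonist Gbp3 and Gbp2 led in CT26, at 33.9 ± 2.50 and 24.0 ± 1.58, and Gbp2 and Gbp3 in MC38, at 23.2 ± 0.01 and 22.8 ± 0.17, an order that turned with the longest transcript as the length (23.2 and 27.8).

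Genes of the same pathway were counted from lists, beside 19.8%, 1.53% and 18.9% of all tested genes called higher in CT26, E0771 and MC38 and 18.6%, 0.0256% and 17% called lower. In the list of interferons, receptors and Janus kinases with their feedback inhibitors, 6 of 11 tested genes rose and 1 fell in CT26, 3 of 11 rose in E0771, and 6 rose and 1 fell of 11 in MC38. Ifnb1, the type I interferon, had 113 ± 2.85 CPM with RIG-I agonist, against 0.143 ± 0.11 with control agonist in CT26 (log2 9.58, SE 0.17), and its log2 fold change was 8.11 (SE 0.58) in E0771 and 5.50 (SE 0.55) in MC38. Its control means there, 0.0380 CPM in E0771 and 0.0737 in MC38, lay below the group floors of 0.117 and 0.101 CPM. The size of these 2 fold changes is therefore uncertain. Ifna4 had 20.9 ± 1.12 CPM with RIG-I agonist in CT26, against 0.00893 ± 0.0155 with control agonist, below the floor of 0.0272 CPM in that control group. The other gene of large change was Usp18, which encodes a feedback inhibitor of interferon signalling, at 2.15, 4.997 and 1.78 in CT26, E0771 and MC38. Ifnar1 fell in CT26, by 0.19, and Ifngr1 fell in MC38, by 0.36.

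Of the transcription factors known to bind these promoters, 9 of 12 rose in CT26, 6 of 12 in E0771, and 10 rose and 1 fell of 11 in MC38. Irf7, which amplifies interferon transcription, rose by 2.51, 5.43 and 2.58 in CT26, E0771 and MC38, and Batf2 by 2.90, 6.13 and 2.43. The E0771 control mean of Batf2, 0.118 CPM, was near the floor of 0.117 CPM in that group. Irf1, a factor that binds GBP promoters directly, rose by 1.59, 2.40 and 0.86 in CT26, E0771 and MC38, while Irf9 rose by 0.83 in CT26 and 0.36 in MC38 and had 73.9 ± 2.06 CPM with RIG-I agonist, against 33.5 ± 10.2 with control agonist in E0771, where it did not pass (edgeR adjusted p = 0.133).

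The immunity-related GTPases, which act with the guanylate-binding proteins at vacuoles, rose in full: 8 of 8 tested in each line, with median log2 fold changes of 2.48 in CT26, 5.99 in E0771 and 2.80 in MC38. Gm12250 changed by 6.20 (SE 0.12), 8.82 (SE 0.72) and 5.19 (SE 0.12), and Iigp1, a founding member of the family, by 3.33, 7.39 and 2.95 in CT26, E0771 and MC38. With control agonist Gm12250 averaged 0.118 CPM in E0771, near the floor of 0.117 CPM in that group. Of 12 genes of ATG8 conjugation and ubiquitin tagging, 3 rose in CT26, 0 in E0771 and 4 in MC38 by edgeR, and none fell, with a median log2 fold change between -0.03 and 0.08 in the 3 lines. The 3 of 12 in CT26 are near the share of all genes called higher there, and nothing is read from them. In E0771, 1 was higher and 1 lower at an unadjusted p under 0.05, and DESeq2 also called 0. At that unadjusted p 1 was lower in CT26, where DESeq2 called 1 lower, and 0 were lower in MC38, where DESeq2 called 0 lower. Among these, Atg16l1 was the largest in CT26, at 0.39, and Sqstm1 in MC38, at 0.45. Of the inflammasome genes that could be tested, 3 of 5 rose in CT26, 3 of 5 in E0771 and 2 of 3 in MC38, among them Casp4, which encodes the mouse caspase-11 protease, at 1.80, 3.11 and 1.11. Pycard and Il1b were not tested in any line because their counts were too low. Of the 6 genes of prenylation and CaaX processing, edgeR called 0 higher in any line, with 0 higher at an unadjusted p under 0.05 and 0 called higher by DESeq2. In this list 2 fell in CT26, 0 in E0771 and 4 in MC38, by at most 0.29 on the log2 scale, and in E0771 1 was lower at an unadjusted p under 0.05 and DESeq2 called 0. These lists were chosen with results of these data known, and the counts are a description.

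The genes flanking the clusters had smaller fold changes than the members. The nearest 3 tested protein-coding genes on each side, 12 in all, had log2 fold changes between -0.81 and 0.48 in the 3 lines. They lay 98.3 to 3934 kb from the clusters, so several are not close neighbours. The largest were Lrrc8d, at -0.81 in MC38 and 0.42 in CT26, and Lrrc8b, at -0.63 in CT26, and edgeR called 0 of the 12 in E0771, where 1 was higher at an unadjusted p under 0.05 and DESeq2 called 0. In CT26 edgeR called 3 higher and 6 lower, and in MC38 6 higher and 4 lower, where DESeq2 called 2 higher and 2 lower. Of all tested genes edgeR called 19.8% higher and 18.6% lower in CT26 and 18.9% and 17% in MC38. The shares in E0771 were 1.53% and 0.0256%. Over the 6 group means, the genes whose pattern lay closest to the median of the members were Gm4951, Ifit1bl2, Usp18, Gm43802 and Slfn8, with root mean square differences of 0.28, 0.30, 0.37, 0.38 and 0.40 on the log2(CPM + 0.5) scale, against a median of 2.00 over the 10682 genes compared. This likeness has no test. Gm43802 has all of its 31-mers in the member Gbp7, so its likeness is not independent of the members.

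CT26 libraries held 32826742 to 40564102 counts, those of E0771 12413347 to 13399247 and those of MC38 12347361 to 18964563, so low members were measured with less precision in E0771 and MC38. The biological coefficients of variation fitted for CT26, E0771 and MC38 were 0.102, 0.202 and 0.0305. Summed leukocyte markers were at or below 1.11 CPM in every library, and of the leukocyte markers Adgre1 was at 0 in both groups of CT26 and of E0771 and Cd3e in all 3 control groups. Epithelial markers, which the labelled carcinoma type would carry, summed to 16.5 to 18.5 CPM in CT26 with RIG-I agonist, against 21.5 to 26.5 with control agonist. In the same order the sums were 203 to 228 against 216 to 271 in E0771 and 0.157 to 0.317 against 0.25 to 0.811 in MC38. Krt18 made up almost all of the CT26 sum, with means of 16.77 CPM with RIG-I agonist and 23.65 with control agonist. Krt8 made up almost all of the E0771 sum, with means of 215.1 and 243.3 CPM in that order. Every other listed epithelial gene averaged at most 0.3 CPM in CT26 and 0.431 in E0771, so the sums do not describe the list as a set. Epcam and Krt18 were at 0 in both MC38 groups, Krt18 in both E0771 groups and Epcam in both CT26 groups. The fibroblast markers summed to 49.0 to 51.3 CPM in CT26 with RIG-I agonist, against 63.8 to 70.0 with control agonist, and to 139 to 162 against 157 to 194 in E0771 and 46.5 to 52.2 against 72.6 to 72.8 in MC38. Pdgfrb made up most of the CT26 sum, with means of 41.2 CPM with RIG-I agonist and 55.8 with control agonist. In the same order Pdgfra, at 36.2 and 56.9, made up most of the MC38 sum. The E0771 sum came from Pdgfra, at 84.0 and 111.9, and Pdgfrb, at 66.7 and 63.8. There Dcn and Lum were at 0 in both groups. Lum averaged at most 0.474 CPM in any group, so these sums do not describe that list as a set. Endothelial markers stayed at or below 15.6 CPM in every library. Whether the lower marker sums with RIG-I agonist bear on the members was not tested.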

How the data were processed

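The authors deposited estimated counts per gene for each of the 3 lines. Per the submitters' processing notes, Salmon, DESeq2 and the GRCm38 build were named, without roles or versions, and other processing is not given in the sources used here. Per the labels' protocols, the libraries were stranded with poly(A) selection. The estimated counts divide reads shared between near-identical genes. Identifiers were matched to GENCODE M21 (34582 of 34866 without version).

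Estimated counts were rounded and tested with edgeR 4.0.16 (R 4.3.3) by the quasi-likelihood F test with TMM scaling and a minimum count of 10 in the filter. P-values were adjusted by Benjamini-Hochberg across the tested genes of the whole table and called at an adjusted p under 0.05. Effects within a line used that line alone. Differences between lines used 1 fit of all 14 libraries with 6 groups, and counts of members there cover those tested in both lines alone. CPM use TMM over all 14 libraries. Ranges marked 95% are exact. DESeq2 1.42.0 and limma 3.58.1 were alternatives. Sequence sharing was counted in 31-mers of the annotated transcripts. The edgeR, DESeq2 and limma fits were tested on simulated data, with fold changes smaller than those of the members in E0771.

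The replicate numbers come from the titles. In CT26 same-numbered RIG-I and control libraries deviated together (correlations 0.122, 0.107 and 0.30, against -0.216 to 0.139 for different numbers), which meets the rule for pairing, and a replicate block changed no member call there. The 0.139 for different numbers lay above the same-numbered 0.122 and 0.107, so the pairing is uncertain. Members, lists and rules for named genes were chosen with earlier results of these data known. All 10 members, the genes inside or beside the clusters, 3 flanking genes a side, the largest list genes and the 5 most alike genes are named by rule. One gene that this rule names is not reported here.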

Additional observations from a re-analysis of the deposited data

Results flagged for a closer look

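The RIG-I effect differed between lines by a test of the difference itself for 17 of the member comparisons, on the log2 scale in 1 edgeR fit of all 14 libraries. These were 8 of 9 members for CT26 minus E0771, 2 of 8 for CT26 minus MC38 and 7 of 8 for E0771 minus MC38. Of all genes tested in both lines, 3.59%, 2.21% and 2.26% were called in the same directions. Some calls were lost under an alternative setting or with a library left out. They were Gbp4, Gbp5 and Gbp10 for CT26 minus E0771, Gbp5 for CT26 minus MC38, and Gbp4, Gbp6 and Gbp9 for E0771 minus MC38. CT26 minus E0771 was -1.71 for Gbp5, -2.19 for Gbp7, -2.34 for Gbp3, -2.74 for Gbp2, -3.62 for Gbp9, -3.62 for Gbp4, -3.43 for Gbp10 and -3.39 for Gbp6. CT26 minus MC38 was 0.91 for Gbp5 and 1.03 for Gbp2. E0771 minus MC38 was 2.62 for Gbp5, 2.73 for Gbp7, 2.80 for Gbp3, 3.77 for Gbp2, 3.40 for Gbp9, 4.16 for Gbp4 and 3.05 for Gbp6. E0771 had 2 libraries a group, and Gbp4 and Gbp10 were tested there only through their RIG-I libraries. Among the members with a called difference, its mean control level was lower than in both other lines for Gbp2, Gbp3, Gbp5, Gbp7, Gbp4, Gbp9 and Gbp6. Control libraries of Gbp6 in E0771 nevertheless overlapped those in CT26. The mean control level of Gbp10 was higher in E0771 than in MC38 (0.196 CPM in E0771 and 0.0737 in MC38). Gbp6 and Gbp10 share most of their sequence.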

How the results depend on the processing

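Of the counts of called members, that for CT26 was 10 under all alternatives. That for E0771, 8, was 7 without the low-count filter (Gbp6 and Gbp9 lost, Gbp8 gained), 9 in 1 fit of all libraries and 8 with DESeq2, and 6 to 8 when a library was left out. That for MC38, 8, was 7 with DESeq2, where Gbp10 had no adjusted p, and 7 to 8 when a library was left out. With limma voom and a variance per line, the called differences in the RIG-I effect were 5 for CT26 minus E0771 (8 in the fit used above) and 4 for CT26 minus MC38 (2), and the called control-level differences for E0771 minus MC38 were 4 (7). When a library was left out, these counts were 7 to 9, 1 to 3 and 4 to 7, those for E0771 minus MC38 in the RIG-I effect 6 to 7, and those for the control level 9 for CT26 minus E0771 and 8 to 9 for CT26 minus MC38. The causes were not tested.

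With a replicate block the E0771 count was 6, since Gbp6, Gbp7 and Gbp9 lost and Gbp8 gained the call. E0771 has only 2 pairs, with a correlation of 0.438 for same numbers and -0.438 for different numbers. With 2 libraries a group these values mirror each other, and the labels do not say whether same-numbered libraries were paired. Whether the blocked or the unblocked count is the better one was not settled. The block gave 10 members in CT26, 8 in MC38, 9 for CT26 minus E0771 (Gbp8 gained), 3 for CT26 minus MC38 (Gbp3 gained) and 5 for E0771 minus MC38 (Gbp6 and Gbp9 lost) in the RIG-I effect, and 9, 7 (Gbp6 and Gbp7 lost) and 5 (Gbp6 and Gbp9 lost) for the control level. Without the low-count filter the last count was also 5.

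Some differences that were not called changed sign, and all their values when a library was left out are given as a range. E0771 minus MC38 in the RIG-I effect of Gbp10 ran between -1.73 (without the second MC38 control library) and 3.19. CT26 minus E0771 in the control level of Gbp6 ran between -0.45 (without the second E0771 control library) and 0.87, with -0.07 without the third CT26 control. CT26 minus MC38 in the control level of Gbp2 ran between -0.0152 (without the third CT26 control) and 0.0896, and was -0.00887 with the replicate block. E0771 minus MC38 in the control level of Gbp2b ran between -2.94 (without the first E0771 control library) and 3.09, with -0.63 without the second MC38 control.

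Of all genes in E0771, edgeR called 183, against 418 with DESeq2, 286 without the filter, 2461 with the replicate block and 1587 in 1 fit of all libraries. In CT26 edgeR called 5334, against 3503 in 1 fit of all libraries, and in MC38 4441, against 2256 with DESeq2 and 999 in 1 fit of all libraries. For differences in the RIG-I effect, edgeR called 569 genes for CT26 minus E0771 (202 with limma voom, 1538 with the block), 557 for CT26 minus MC38 (977 with DESeq2, 2592 with limma voom, 1817 with the block) and 307 for E0771 minus MC38 (510 with DESeq2, 166 with limma voom, 880 with the block). Summed levels kept their direction under every alternative, with log2 folds of 5.19 to 6.04 in E0771 when a library was left out. With the longest transcript in place of merged exons, 14 of the 28 levels per kilobase with RIG-I agonist (members with more than 3 counts) moved by more than 1 SD between libraries. Depth limits Gbp8 and Gbp10 in E0771 and MC38, and Gbp2b in these lines lies at the floor.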
